A study of Mus musculus with 24 samples.

Results

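The mitochondrial carrier family Slc25, with the uncoupling proteins Ucp1, Ucp2 and Ucp3, was described in tibialis anterior muscle of control mice and mice labelled Hira CKO. Members were all array probes whose platform gene symbol begins with SLC25A or is UCP1, UCP2 or UCP3. Slc25a1 was left out, because it lies beside Hira on the chromosome. This gave 50 of 26423 probes, for 44 of 17742 named genes. Of these genes, 38 had 1 probe and 6 had 2.

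Most Slc25 proteins sit in the inner mitochondrial membrane and exchange metabolites, nucleotides, cofactors and ions between the matrix and the cytosol. In muscle they pass ADP in and ATP out, bring in phosphate and acylcarnitines, and move reducing equivalents from glycolysis inward through the malate-aspartate shuttle. Uncoupling proteins belong to the same family. Ucp1 lets protons leak back in brown fat and gives heat, Ucp3 is mainly a muscle protein, and Ucp2 is found in many cell types.

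Each of the 8 mice was 6 weeks old, of the mixed background C57BL6/J;129S1/SvImJ, and its RNA was hybridised on 3 single-colour arrays. The 4 controls were Myf6 cre/+; Hira flox/+ and the 4 Hira CKO (conditional knockout) mice were Myf6 cre/+; Hira flox/-. All 8 therefore carried the Myf6 cre driver, which acts in muscle fibres, and a floxed Hira allele. The second Hira allele, wild type in controls and null in Hira CKO, differed in every cell, so the groups do not differ in fibres alone. Hira encodes a chaperone for the histone variant H3.3. The sources used here do not give sex.

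Values are normalized linear intensities, averaged over the 3 arrays of an animal. They show how bright a probe was and do not rank one gene's transcript against another's. Changes are Hira CKO minus control on the log2(intensity + 16) scale, with SE, and they understate the change of dim probes. A probe was called when its limma p, adjusted over all 26423 probes by the Benjamini-Hochberg method, was under 0.05. At the Hira probe the intensity was 495 ± 48.9 in controls and 558 ± 38.9 in Hira CKO (SD, n = 4), so it showed no fall with the labels, and the sources used here do not place it inside or outside the floxed stretch. All directions rest on the labels. Lists of cell type markers took each gene at its brightest probe, where 11.0% of all genes were called higher and 10.2% lower. Of 10 listed fibre genes 8 were measured. Their summed intensity ran from 1490720.0 to 1729750.0 in controls and from 1449990.0 to 1530880.0 in Hira CKO, and Acta1 (fell by 0.55 log2) and Ckm (fell by 0.28) were called. Endothelial markers were called lower for 3 of 6 genes, Pecam1, Kdr and Egfl7. Cdh5 (−0.18 log2), Tie1 (−0.16) and Tek (0.11) were not called. The endothelial sums, 46090.5 to 60392 in controls and 33834.9 to 39147 in Hira CKO, did not overlap. Egfl7, with means of 30882 in controls and 19234 in Hira CKO, was the largest part of them. Of 7 macrophage and monocyte markers Itgam was called higher (0.40 log2, adjusted p 0.0373) and Cx3cr1 lower (fell by 1.61 log2, adjusted p 4.84e-06), and the sums overlapped (5021 to 7620.4 in controls, 4809 to 6917 in Hira CKO). Of 3 Schwann cell and nerve markers 0 were called by limma, and their sums overlapped too. The part of these cells in the results below was not tested. In these bulk samples, fewer cells of a type and less RNA per cell cannot be told apart.

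Across the family, 6 of 50 probes were called higher in Hira CKO and 4 lower. Among all probes 10.5% were called higher and 10.0% lower, 20.6% in either direction, against 10 of 50 member probes. The count of called members was thus near the share seen over the whole array. The median size of change, whatever its sign, was 0.22 log2 over the member probes and 0.16 log2 over all probes. Its median change was 0.048 log2, beside 0.012 over all probes, and it was −0.014 once the dimmest 30% of probes were left out. The called carriers were Ucp1, Slc25a10, Slc25a28, Slc25a30, Slc25a2 and Slc25a38 (higher), and Slc25a42, Slc25a11, Slc25a22 and Slc25a17 (lower). Only 4 of these 10 calls held in every alternative fit that tested them. The 2 groups of animals did not overlap for 11 member probes (22.0%), beside 24.8% of all probes. Those 11 were 9 of the 10 called probes, where Slc25a22 was the exception, with Slc25a4 and 1 probe of Ucp2.

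**Figure D1:**
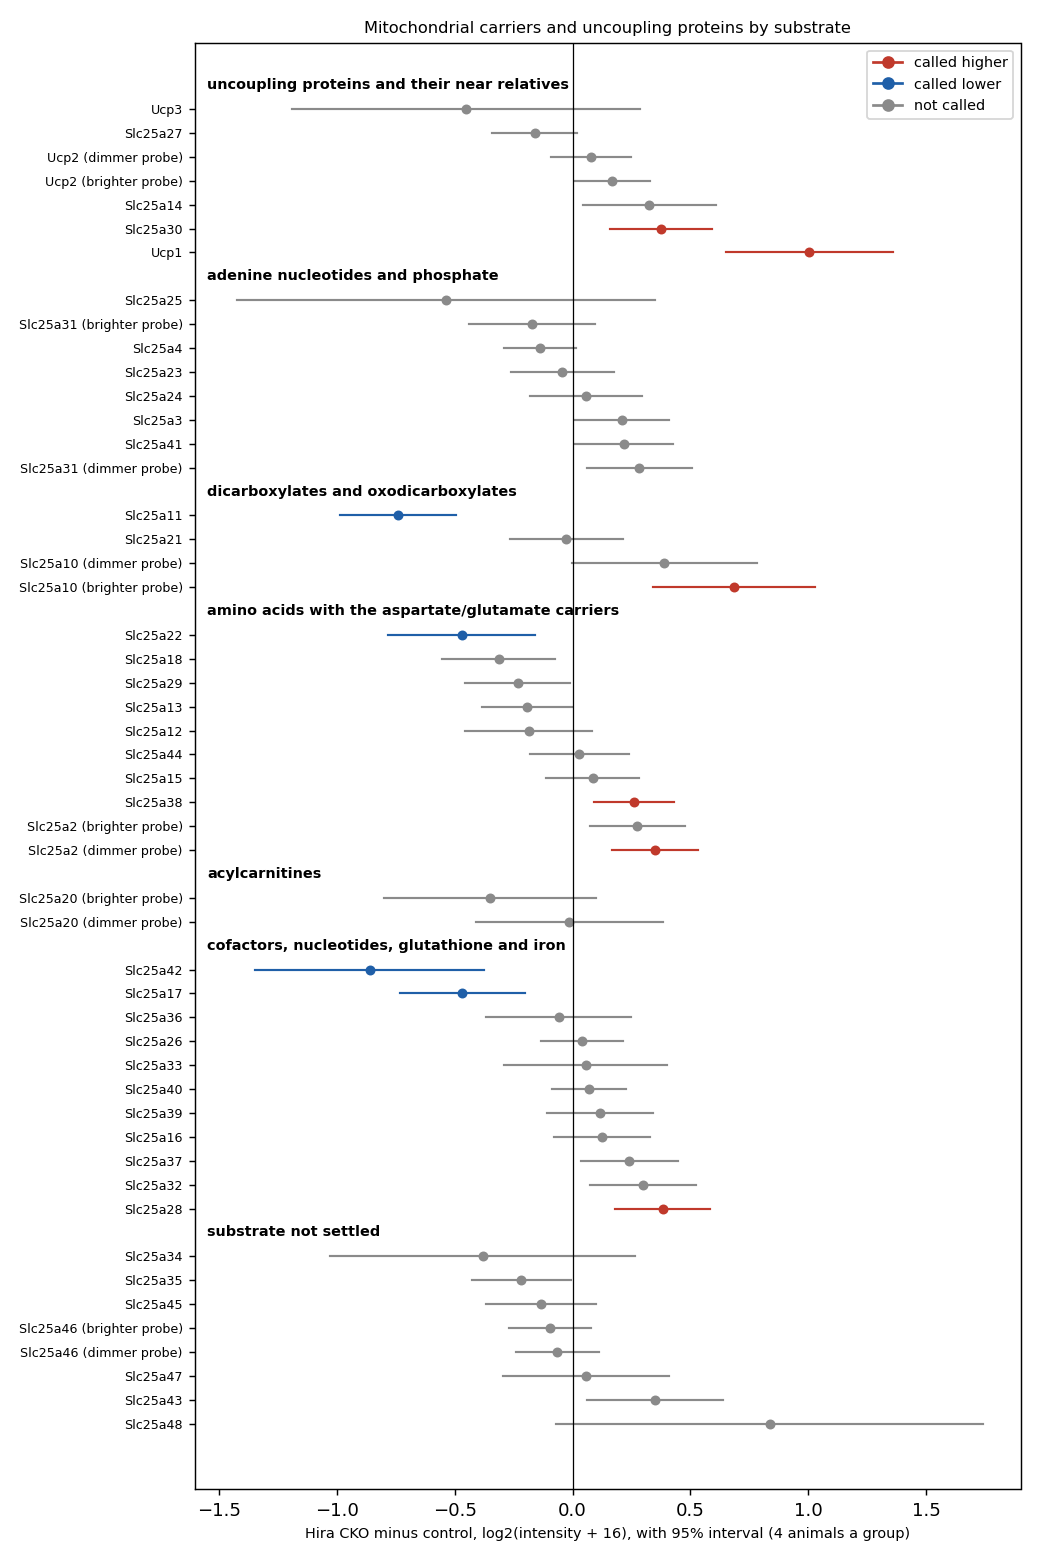
Change between groups for each of the 50 member probes, ordered by transported substrate. The horizontal axis is Hira CKO minus control on the log2(intensity + 16) scale. Points are estimates and lines their 95% intervals. Calls in both directions (6 higher, 4 lower) lie among carriers of different substrates. The 8 probes for adenine nucleotides and phosphate, the 8 of unsettled substrate and the 2 for acylcarnitines hold none.

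The RefSeq promoter table (build GRCm38.p6) held 35 of the 44 member genes. The stretches of 250 bases before the annotated start are shown for 3 genes, the carriers of dicarboxylates that were called in opposite directions and Ucp1, the member with the largest rise. Sequences read 5′ to 3′ on the strand of the gene, and capitals mark each CG dinucleotide. Slc25a11 lies at chr11:70647040-70647289, minus strand, Slc25a10 at chr11:120491587-120491836, plus strand, and Ucp1 at chr8:83290098-83290347, plus strand.

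The 3 upstream stretches are these.
Slc25a11: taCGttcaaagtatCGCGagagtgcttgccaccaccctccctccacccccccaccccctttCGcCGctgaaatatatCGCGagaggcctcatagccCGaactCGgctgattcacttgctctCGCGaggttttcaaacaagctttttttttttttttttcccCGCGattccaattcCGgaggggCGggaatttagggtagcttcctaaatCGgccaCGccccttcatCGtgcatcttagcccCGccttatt
Slc25a10: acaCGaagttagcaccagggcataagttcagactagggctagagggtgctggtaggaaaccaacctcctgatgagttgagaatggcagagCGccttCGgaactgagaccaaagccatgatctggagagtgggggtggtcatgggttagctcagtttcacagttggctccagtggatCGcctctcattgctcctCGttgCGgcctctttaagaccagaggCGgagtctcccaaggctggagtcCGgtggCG
Ucp1: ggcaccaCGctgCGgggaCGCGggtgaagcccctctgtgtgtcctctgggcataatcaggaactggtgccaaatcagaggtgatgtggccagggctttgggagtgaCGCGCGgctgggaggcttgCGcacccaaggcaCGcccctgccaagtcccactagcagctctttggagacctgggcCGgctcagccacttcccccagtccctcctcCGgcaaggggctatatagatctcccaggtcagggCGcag

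These letters held 19 CG dinucleotides for Slc25a11, 9 for Slc25a10 and 12 for Ucp1, beside a median of 12 over the 35 member genes and 6 over all 27025 promoters in the table. Members called higher had 9 to 17 (5 genes) and members called lower 4 to 19 (4 genes), so the ranges overlapped. The GC box GGGCGG, read on both strands, was present before 22 of 35 member genes (62.9%) and 32.9% of all promoters. The CCAAT letters were present before 15 of 35 (42.9%) and 34.5% of all. The TATA letters TATAAA were present before 1 of 35 (2.86%), Slc25a18, and in 3504 of the 27025. Slc25a11 held 1 GC box and 1 CCAAT, and neither Slc25a10 nor Ucp1 held any of the 3 motifs in these exact letters. Variants of the motifs were not searched. The letters TATATA, which are not TATAAA, stand near the end of the Ucp1 stretch. The reversed CCAAT and the GC box can share letters at their ends, and a match is a description, not a bound site.

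Of the 3 carriers of dicarboxylates, Slc25a11 fell, Slc25a10 rose at 1 of its 2 probes and Slc25a21 did not pass. Slc25a11 exchanges 2-oxoglutarate for malate and is one of the carriers of the malate-aspartate shuttle. Its intensity was 108402, 127785, 116618 and 101711 in control animals 1 to 4 and 70524, 79098, 65137 and 59376 in Hira CKO animals 1 to 4. Every Hira CKO animal lay below every control. The means were 113629 ± 11235 in controls and 68534 ± 8386 in Hira CKO (SD, n = 4), and Slc25a11 fell by 0.74 log2 (SE 0.11, limma adjusted p 0.00148). The control mean was 1.66 times the Hira CKO mean.

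Slc25a10, the dicarboxylate carrier, exchanges malate or succinate for phosphate. Its brighter probe gave 674, 733, 603 and 909 in control animals 1 to 4 and 1056, 1156, 1236 and 914 in Hira CKO animals 1 to 4. The groups only just failed to overlap, with Hira CKO animal 4 beside control animal 4. The change was 0.68 log2 (SE 0.15, limma adjusted p 0.0126). Its second, dimmer probe gave 285, 359, 227 and 308 in control animals 1 to 4 and 421, 402, 275 and 480.3 in Hira CKO animals 1 to 4, with overlapping groups and a change of 0.39 log2 that did not pass (SE 0.18, adjusted p 0.145). The call at the brighter probe was lost when all 24 arrays were fitted with the animal as a random block, and when array 1 or array 2 of each animal was left out. In the fit with the random block the dimmer probe was called instead. The SD between arrays of an animal was 0.55 log2 at the brighter probe and 0.15 at the dimmer.

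The log2 difference of Slc25a10 (brighter probe) over Slc25a11 within an animal was higher in every Hira CKO animal than in any control. This had to follow, because the groups were already separate, in opposite directions, at each probe. The groups differed by 1.43 log2 (SE 0.23). This pair was chosen after the values were seen, so the difference is a description with no test. Slc25a21, the oxodicarboxylate carrier, was dim, at 70.5 ± 7.50 in controls and 70.3 ± 11.7 in Hira CKO, and its change of −0.026 log2 did not pass.

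Among amino acid carriers 2 of 10 probes rose and 1 fell, beside 10.5% and 10.0% of all probes. Slc25a22, a glutamate carrier, measured 4305, 2692, 3456 and 3579 in control animals 1 to 4 and 2830.1, 2491, 2579 and 2134 in Hira CKO animals 1 to 4. Control animal 2 lay below Hira CKO animal 1, so the groups overlapped. Slc25a22 fell by 0.47 log2 (SE 0.14, adjusted p 0.0396), but 6 of the 8 leave-one-animal fits did not call it. The related glutamate carrier Slc25a18 was dim and its change of −0.31 log2 did not pass (adjusted p 0.0650).

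Slc25a38 brings glycine into mitochondria for heme synthesis. Its probe measured 3225, 2776, 3282 and 3189 in control animals 1 to 4 and 3594, 3767, 3918 and 3666 in Hira CKO animals 1 to 4, with every Hira CKO animal above every control. It rose by 0.26 log2 (SE 0.076, adjusted p 0.0365). Among the 8 leave-one-animal fits it was called in 1, without control animal 1.

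Slc25a2, an ornithine carrier, had 2 dim probes. The dimmer measured 54.0, 41.8, 42.3 and 48.8 in control animals 1 to 4 and 59.4, 66.2, 63.4 and 66.2 in Hira CKO animals 1 to 4 and rose by 0.35 log2 (SE 0.082, adjusted p 0.0149). The brighter gave 285, 234, 233 and 236 in control animals 1 to 4 and 338, 277, 302 and 296 in Hira CKO animals 1 to 4, where control animal 1 overlapped Hira CKO animal 2, and its change of 0.28 log2 just missed the threshold (adjusted p 0.0548). Both probes thus had positive changes of like size. Slc25a15, the other ornithine carrier, changed by 0.085 log2 (95% interval −0.11 to 0.28).

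The aspartate/glutamate carriers Slc25a12 and Slc25a13 send aspartate out of the matrix and form the other arm of the malate-aspartate shuttle. Slc25a12 measured 16592, 18388, 21960.2 and 21979 in control animals 1 to 4 and 14714, 19229, 18828 and 16573 in Hira CKO animals 1 to 4. The groups overlapped, with a change of −0.19 log2 (95% interval −0.45 to 0.082, adjusted p 0.300). Slc25a13, better known from liver, was dim here at 291, 256, 261 and 238 in control animals 1 to 4 and 249, 219, 205 and 235 in Hira CKO animals 1 to 4. Its change of −0.19 log2 (adjusted p 0.140) did not pass. The changes of these sister genes differed by 0.0057 log2 (SE 0.21, two-sided exact permutation p 0.943, where the smallest p possible is 0.0286). The exact p-values of sister pairs are given without adjustment for the number of pairs. Slc25a29, a carrier of basic amino acids, changed by −0.23 log2 and Slc25a44, of branched-chain amino acids, by 0.029, and neither passed.

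The shuttle's enzymes did not all go with Slc25a11. Mdh1, the cytosolic malate dehydrogenase, measured 1487, 1063, 1253 and 1219 in control animals 1 to 4 and 2092, 2267, 1805 and 1463 in Hira CKO animals 1 to 4. It rose by 0.58 log2 (SE 0.15, adjusted p 0.0204), although control animal 1 overlapped Hira CKO animal 4. Mdh2, the mitochondrial enzyme, was 158033 ± 4340.4 in controls and 140687 ± 5518 in Hira CKO (SD, n = 4), with no overlap between groups, and its change of −0.17 log2 did not pass (adjusted p 0.0958). The aspartate aminotransferases Got1 (0.24 log2) and Got2 (−0.21) did not pass either. Gpd2, of the glycerol phosphate shuttle, fell by 0.42 log2 (SE 0.10, adjusted p 0.0165). Of 15 measured shuttle enzymes 1 rose (Mdh1) and 2 fell (Gpd2 and Ckm). These counts take each gene at its brightest probe, where 11.0% of all genes were called higher and 10.2% lower.

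**Figure D2:**
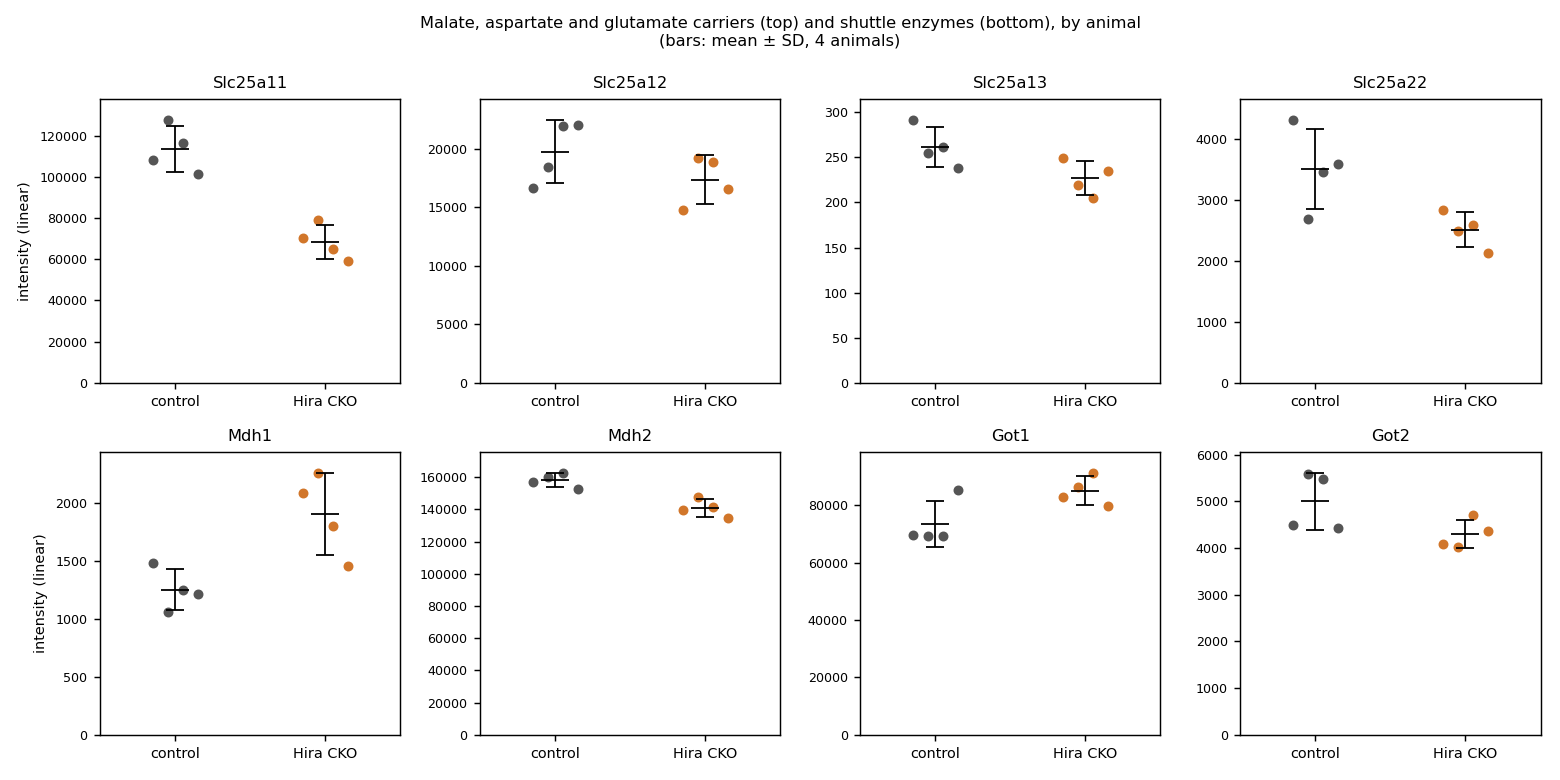
Linear intensity of each animal (points) with mean ± SD of 4 animals (bars) for 4 carriers of malate, aspartate or glutamate and 4 enzymes of the malate-aspartate shuttle, each on its own axis from 0. Slc25a11 is lower in every Hira CKO animal than in any control, from 59376 to 79098 against 101711 to 127785, while Slc25a12 overlaps between groups and Mdh1 is higher on average in Hira CKO.

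The carriers that serve ATP supply showed no call at any of 8 probes, where 20.6% of all probes were called. Slc25a4, the ADP/ATP translocase of heart and muscle, measured 169084, 174972, 174230.0 and 191521 in control animals 1 to 4 and 158685, 164141, 157906 and 162830.0 in Hira CKO animals 1 to 4. All 4 Hira CKO animals lay below all controls, but the change was small, −0.14 log2 (95% interval −0.29 to 0.016, adjusted p 0.186). Slc25a31, the germ cell translocase, changed by −0.17 log2 at its brighter probe and 0.28 at its dimmer one, opposite in sign and neither called. Its sister Slc25a5 was not analysed here. Without probe sequences, signal shared between near-identical translocase transcripts was not tested.

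Slc25a3, the phosphate carrier, gave 10901, 9866, 10066 and 9306 in control animals 1 to 4 and 12540.2, 11906, 11913 and 10048 in Hira CKO animals 1 to 4. Hira CKO animal 4 overlapped the controls, and the change of 0.21 log2 did not pass (95% interval 0.012 to 0.41, adjusted p 0.122). Among the ATP-Mg/phosphate carriers, Slc25a23, Slc25a24 and Slc25a41 changed by −0.043, 0.057 and 0.22 log2. The fourth, Slc25a25, which responds to calcium, varied widely: 6101, 6148, 14914 and 14098 in control animals 1 to 4 and 3220.0, 7211, 7334 and 10448 in Hira CKO animals 1 to 4. Both groups were spread widely and overlapped, and the interval of its change ran from −1.42 to 0.35 log2, so no difference was detectable.

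Slc25a20 brings acylcarnitines into the matrix for fatty acid oxidation. Its 2 probes changed by −0.35 log2 (95% interval −0.80 to 0.099) and −0.014 log2 (95% interval −0.41 to 0.38), and neither passed. Hira CKO animal 4 was the lowest of its group at both. Of the enzymes that make or use acylcarnitines, Cpt2 changed by −0.055 log2, Crat by −0.077 and Crot by 0.12. Cpt1a changed by 0.12 log2 at its brighter probe and −0.53 at its dimmer one (limma adjusted p 0.0886). None of these was called.

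Of the uncoupling proteins, Ucp1 had the largest change of any called member. Its probe measured 102, 96.0, 86.0 and 101 in control animals 1 to 4 and 211, 159.7, 303 and 186 in Hira CKO animals 1 to 4. Every Hira CKO animal was above every control, and animal 3 was the highest. The means were 96.3 ± 7.38 in controls and 215 ± 62.4 in Hira CKO (SD, n = 4), a rise of 1.00 log2 (SE 0.16, adjusted p 0.00211). Its mean lay at the 27.7th percentile of all probes, so this rise starts from a dim signal. It was 0.83 to 1.12 log2 over all other settings and was called in all 17 of them that tested it.

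Ucp1 is the defining protein of brown fat, and adipocyte markers were therefore set beside it. Of 8 adipocyte and brown fat markers 0 were called by limma in either direction, beside 11.0% of all genes higher and 10.2% lower. The summed intensity of the 8 markers was 40200 to 74129 in controls and 39962 to 52136 in Hira CKO. Fabp4 alone averaged 39632 in controls and 37058 in Hira CKO, so the sum mostly follows that probe and says little of the dimmer markers. Cidea, a marker of brown fat, was 848 ± 278 in controls and 680.1 ± 106 in Hira CKO (SD, n = 4), with a change of −0.27 log2 (adjusted p 0.401). Adipoq, the adiponectin gene, was 3677 ± 1786 in controls and 2964 ± 648 in Hira CKO (change −0.21 log2, adjusted p 0.658). Retn (0.44 log2) and Lep (0.17) went the other way. Changes over the 8 markers ran from −0.68 to 0.44 log2, with a median of −0.21. The Hira CKO sums lay within or just below the range of the controls, and the part of fat cells in the Ucp1 result was not tested further.

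Ucp3 measured 5976, 2191, 6157 and 7991 in control animals 1 to 4 and 3744, 3368, 4364 and 3323 in Hira CKO animals 1 to 4. Control animal 2 was below every Hira CKO animal and the other 3 controls were above all of them. The change was −0.45 log2 (95% interval −1.19 to 0.29, adjusted p 0.363), and without control animal 2 it was −0.85 and was called (adjusted p 0.00387). Ucp2 was dim, at 128, 119, 122 and 109 in control animals 1 to 4 and 143, 131, 138 and 134 in Hira CKO animals 1 to 4 for its brighter probe. The groups did not overlap there, the change being 0.17 log2 (adjusted p 0.120). Its dimmer probe changed by 0.079 log2 (adjusted p 0.496) and its groups overlapped. The changes of Ucp1 and Ucp3 differed by 1.46 log2 (SE 0.42), a pair also chosen after the values were seen and given with no test.

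Slc25a30, a near relative first described in kidney, gave 340.1, 281, 349 and 350.3 in control animals 1 to 4 and 380.5, 459, 432 and 462 in Hira CKO animals 1 to 4. It rose by 0.37 log2 (SE 0.098, adjusted p 0.0235) with no overlap, and 3 of the 8 leave-one-animal fits did not call it. Slc25a14 changed by 0.32 log2 (adjusted p 0.0971). Slc25a27 measured 19056, 18969, 18418 and 16550.4 in control animals 1 to 4 and 17001, 15590.2, 17639 and 15063 in Hira CKO animals 1 to 4, and its change of −0.16 log2 did not pass (adjusted p 0.190).

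**Figure D3:**
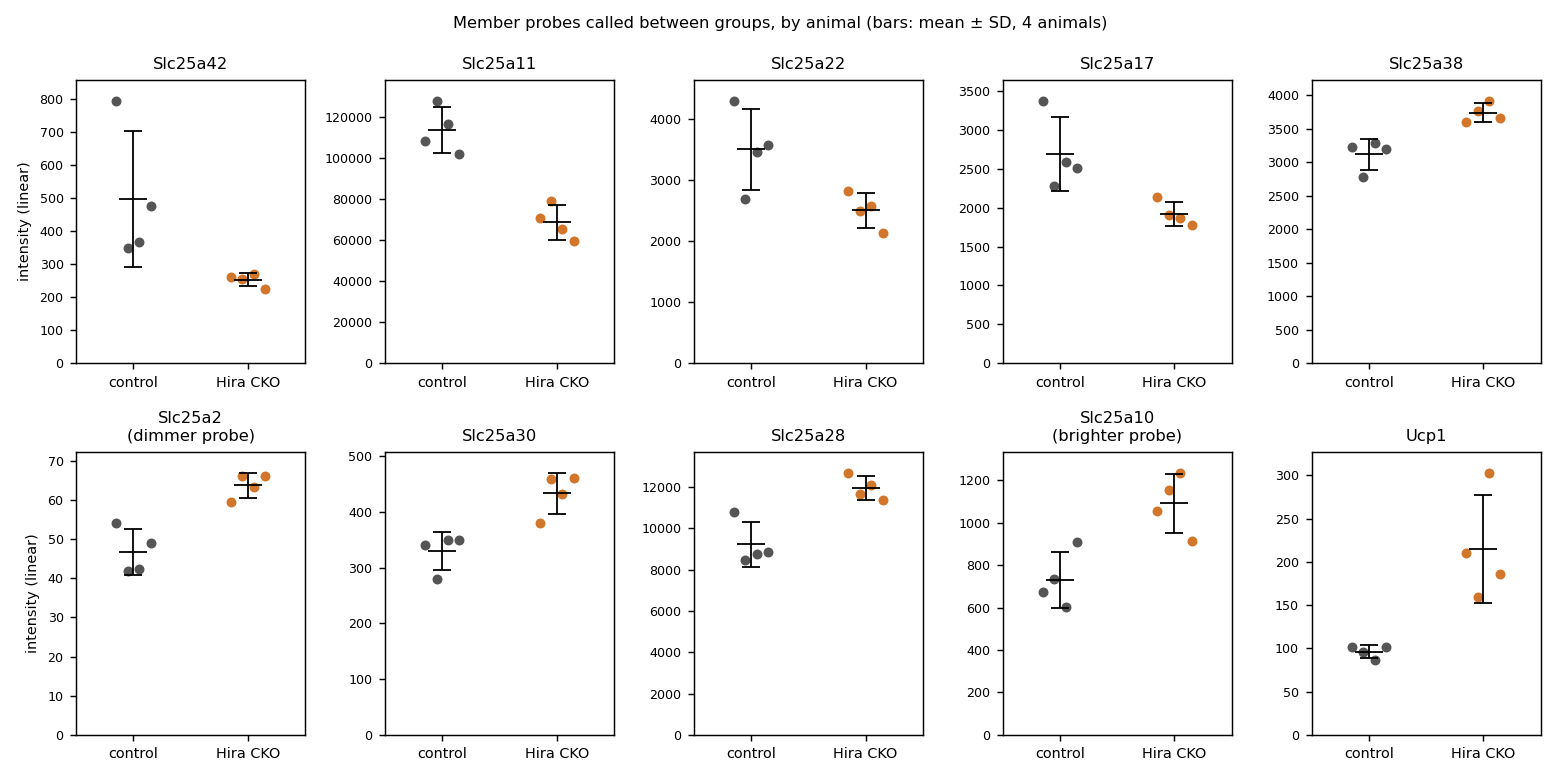
Linear intensity of each animal (points) with mean ± SD of 4 animals (bars) for the 10 called member probes, each on its own axis from 0. The groups are separate at 9 of the 10. At Slc25a22 control animal 2 (2692) lies below Hira CKO animal 1 (2830.1), and at Slc25a42, Slc25a17 and Slc25a22 control animal 1 is the highest.

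Carriers of cofactors, nucleotides and iron held 1 rise and 2 falls among 11 probes, beside 10.5% and 10.0% of all probes. Slc25a42 imports coenzyme A. Its probe gave 794, 348, 367 and 475 in control animals 1 to 4 and 261, 254, 269 and 224 in Hira CKO animals 1 to 4. Control animal 1 was far above the other controls, yet all controls exceeded all Hira CKO animals. Slc25a42 fell by 0.86 log2 (SE 0.22, adjusted p 0.0208), and without control animal 1 by 0.61 (adjusted p 0.00810). Slc25a16, linked to the same cofactor, changed by 0.13 log2 and did not pass.

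Slc25a17 is a carrier of the peroxisome membrane for coenzyme A and related cofactors. It measured 3381, 2277, 2585 and 2517 in control animals 1 to 4 and 2135, 1909.6, 1867 and 1779.7 in Hira CKO animals 1 to 4. The groups did not overlap, and Slc25a17 fell by 0.47 log2 (SE 0.12, adjusted p 0.0213). The call was lost without Hira CKO animal 2 or 4.

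The mitoferrins Slc25a28 and Slc25a37 bring iron into mitochondria for heme and iron-sulphur clusters. Slc25a28 measured 10813, 8459.8, 8740.4 and 8852 in control animals 1 to 4 and 12701, 11658, 12098 and 11392 in Hira CKO animals 1 to 4. Every Hira CKO animal was above every control, with a rise of 0.38 log2 (SE 0.09, adjusted p 0.0154). Slc25a37, which is prominent in red cell precursors, gave 8465, 8994, 7510.5 and 7135 in control animals 1 to 4 and 9613, 9264, 10115 and 8720.1 in Hira CKO animals 1 to 4. There Hira CKO animal 4 lay below control animal 2, and the change of 0.24 log2 did not pass (adjusted p 0.0913). The changes of these sisters differed by 0.14 log2 (SE 0.11, exact permutation p 0.2, unadjusted), so a difference between them was not shown. Of 7 red cell markers 2 were measured, and their sums overlapped (860 to 1519 in controls, 807 to 1464 in Hira CKO).

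The pyrimidine nucleotide carriers Slc25a33 and Slc25a36 were not called. Slc25a33 gave 9509, 6309, 6003 and 5841 in control animals 1 to 4 and 6950.1, 6322, 8289 and 6784 in Hira CKO animals 1 to 4, and control animal 1 was the highest of all 8. Its change was 0.056 log2 (95% interval −0.29 to 0.40). Slc25a36 gave 1068, 1074, 1426 and 1531 in control animals 1 to 4 and 1038, 1167, 1244 and 1405 in Hira CKO animals 1 to 4, a change of −0.059 log2 (95% interval −0.37 to 0.25). The changes of this pair differed by 0.12 log2 (SE 0.30, exact permutation p 0.743, unadjusted). Slc25a32, a carrier of folate, changed by 0.30 log2 and missed the threshold (adjusted p 0.0606). Slc25a26, which brings in S-adenosylmethionine, changed by 0.04 log2, and Slc25a39 and Slc25a40, linked to glutathione, by 0.12 and 0.069, none of them called.

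The 7 members whose substrate is not settled gave no call at 8 probes, where 20.6% of all probes were called. Slc25a46, an outer membrane protein that acts on mitochondrial shape, changed by −0.097 and −0.064 log2 at its 2 probes. The largest estimate was in Slc25a48, 0.84 log2, but its controls ran from 253 to 970.4 and its interval from −0.069 to 1.74. Slc25a34 also varied widely, from 576 to 1427 in controls and from 460.0 to 1043 in Hira CKO. Slc25a35, Slc25a43, Slc25a45 and Slc25a47 changed by −0.22, 0.35, −0.13 and 0.056 log2.

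The animals were not alike. Control animal 1 had the highest value of its group at 27 of 50 member probes (54.0%), against 30.1% of all probes, and Slc25a42, Slc25a22, Slc25a17 and Slc25a28 were among the 27. Without it, 10 member probes were called higher and 3 lower, when 2634 of all 26423 probes were higher and 2499 lower (19.4% called). Slc25a14, Slc25a31 (dimmer probe), Slc25a32 and the brighter Slc25a2 probe were then called higher, and Slc25a22 lost its call. Without Hira CKO animal 4, 5 were called higher, with Slc25a3 gained (0.28 log2, adjusted p 0.0395), and 1, Slc25a11, lower, when 19.0% of all probes were called. Without Hira CKO animal 2, 7 were called higher and 2 lower, when 14.5% of all probes were called. The median SD was 0.13 log2 between arrays of an animal and 0.15 log2 between animal means of a group over the member probes.

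Ucp1, Slc25a11, Slc25a28 and the dimmer Slc25a2 probe kept their call in every alternative fit that tested them. Slc25a42 lost it only without Hira CKO animal 4 (adjusted p 0.0505). Calls of Slc25a10, Slc25a17, Slc25a22, Slc25a30 and Slc25a38 were lost in 2 to 10 fits each.

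**Figure D4:**
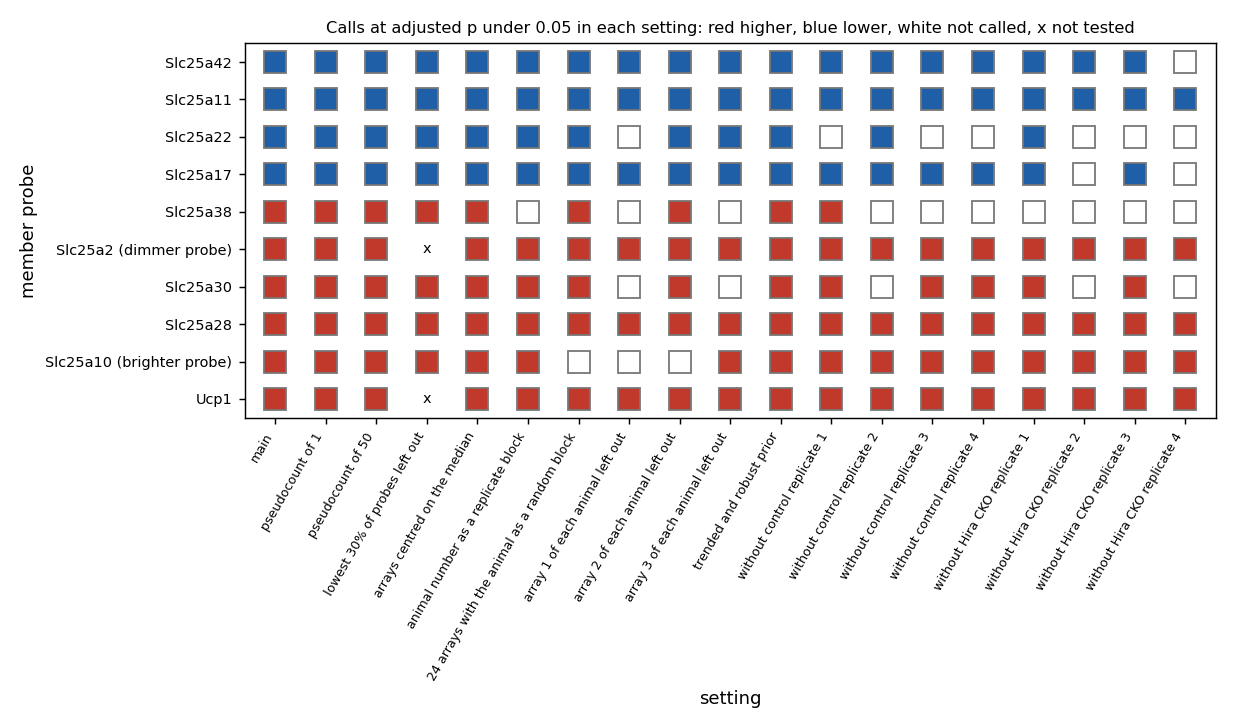
Calls of the 10 member probes (rows) in the fit as reported and under 18 alternatives (columns), at an adjusted p under 0.05. Red squares are called higher in Hira CKO, blue lower, white not called and x not tested because the probe fell in the dimmest 30%. Slc25a11 and Slc25a28 are filled in all 19 columns, and Slc25a38 is open in 10.

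Genes that build or surround the carriers were examined in lists outside the family. Carriers are guided across the intermembrane space by small Tim chaperones and inserted by the TIM22 complex. Of 11 measured import genes 2 rose and 3 fell, beside 11.0% and 10.2% of all genes at their brightest probe. Timm29, a subunit of the TIM22 complex, measured 6918, 5323, 5796 and 5616 in control animals 1 to 4 and 3920.1, 3881, 4235 and 3461 in Hira CKO animals 1 to 4 and fell by 0.61 log2 (SE 0.098, adjusted p 0.00235). Timm22, the insertase itself, rose by 0.32 log2 (adjusted p 0.0162) and Tomm22, an outer membrane receptor, by 0.38 (adjusted p 0.0175). Tomm70a, the receptor for carrier precursors, fell by 0.23 log2 (adjusted p 0.0399) and the chaperone gene Timm13 by 0.25 (adjusted p 0.0240). A second, dimmer Timm13 probe changed by 0.038 log2 and did not pass.

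Of 19 other channels and carriers of the mitochondrial membranes 1 rose and 1 fell, beside 11.0% and 10.2% of all genes at their brightest probe. Micu2, a regulator of the calcium uniporter, rose by 0.58 log2 (adjusted p 0.00410), and the sideroflexin Sfxn4 fell by 0.42 (adjusted p 0.00652). The outer membrane channels Vdac1, Vdac2 and Vdac3 changed by −0.06, −0.0019 and −0.0075 log2, none called. The pyruvate carrier subunit Mpc2 changed by 0.30 log2 (adjusted p 0.0503).

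Regulators of mitochondrial genes were taken at the brightest probe of each, where 11.0% of all genes were called higher and 10.2% lower. Among 8 regulators only Ppargc1b was called. This coactivator, PGC-1β, measured 1667, 1704, 1889 and 1391 in control animals 1 to 4 and 509, 619, 549 and 484 in Hira CKO animals 1 to 4. The groups were far apart, and it fell by 1.61 log2 (SE 0.12, adjusted p 2.36e-05). Its sister Ppargc1a, PGC-1α, changed by −0.076 log2 (95% interval −0.44 to 0.28), and Esrra, Tfam and Ppard by 0.088, −0.11 and −0.31, none called. A dimmer Ppara probe fell by 0.35 log2 (adjusted p 0.0288), while the brightest Ppara probe changed by 0.087. A dimmer Nrf1 probe fell by 0.47 log2 (adjusted p 0.00171). The brightest Nrf1 probe changed by 0.0062 log2 and another by −0.11, neither called. In the import list a dimmer Timm9 probe fell by 0.70 log2 (adjusted p 8.03e-04), while its brightest changed by −0.0028. The 3 dimmer probes that fell were named after their values were seen.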

How the data were processed

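Total RNA of tibialis anterior muscle, Cy5-labelled per the labels' protocols, was measured on 24 arrays, 3 for each of 4 control and 4 Hira CKO animals. The deposited table held linear intensities, normalized by the authors as judged from its values: array medians lay between 431.5 and 433.5, every array had the same highest value, and 81.1% of values fell within 0.001 of a step of 1/24, the mark of averaging over the 24 arrays. Some values (50) were at or below 0, so background had been subtracted. The sources used here give no software, scan date or detection call, so a batch of arrays cannot be told apart from the groups. Precision is limited by the number of animals and arrays.

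Probe symbols came from the platform annotation (20377 probes with 1 symbol, 0 with several, 6046 unnamed), updated through the RefSeq table of GRCm38.p6 (18213 current, 2126 by synonym, 38 kept). Its coordinates were used only for promoters.

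Values below 0 were set to 0, 16 was added, log2 was taken and the 3 arrays of an animal were averaged. Groups were fitted with limma 3.58.1 in R 4.3.3 over all 26423 probes, with Benjamini-Hochberg adjustment. Sister pairs of genes were compared by two-sided exact permutation of animals, without adjustment for the number of pairs. In lists outside the family each gene was taken at its brightest probe. Named members were those with a called probe, the 6 of highest control intensity, the uncoupling proteins and sister pairs. Members, lists and alternatives were chosen with earlier results of these data known. Whether animals came from separate litters was not given, and p-values measure the spread between these animals. Figures used matplotlib 3.10.9.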

Additional observations from a re-analysis of the deposited data

Results flagged for a closer look

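In 4 of 48 groups of 4 animals examined among the named member probes, 1 animal lay far from the others by Dixon's criterion, where chance alone gives about 1 group in 20. Control animal 1 was the high one at 3 of them. At the brighter Slc25a2 probe it measured 285, against 233 to 236 in the other controls. At Slc25a28 it measured 10813, against 8460 to 8852. At Slc25a33 it measured 9509, against 5841 to 6309. At Slc25a30 control animal 2 was low, at 281 against 340.1 to 350.3.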

How the results depend on the processing

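Of 6 rises and 4 falls among member probes, 1 and 1 remained at a threshold of 0.01 (Ucp1 and Slc25a11). The share of all probes called at 0.01 was not counted, so these counts are not set against the whole array. Leaving out 1 animal gave 4 to 10 rises and 1 to 5 falls, while the share of all probes called ran from 13.9% to 19.4%. Leaving out array 1 of each animal gave 3 rises and 3 falls, with 16.6% of all probes called. With the animal number as a replicate block there were 7 rises and 4 falls, with 18.6% of all probes called. That block lost the call of Slc25a38 and gained the second probes of Slc25a10 and Slc25a2. Same-numbered animals had correlations of 0.296, 0.093, −0.0643 and 0.0673 between their deviations from the group means, and 1 of 4 correlated best with its own number, so they were not treated as pairs. With each of the 44 genes at its brightest probe, chosen after seeing the data, 5 rose and 4 fell, beside 11.0% and 10.2% of all genes. Other settings kept both counts within 1.5 times, and the median change, 0.048 log2, was −0.014 without the dimmest 30% of probes and 0.021 to 0.058 over the fits without 1 animal. Over 428 alternative values for named probes, 386 kept direction and side of the threshold, 28 lost and 8 gained a call, and 6 changed sign. Those 6 were uncalled changes near 0 without 1 animal, where Slc25a33 ran from −0.022 to 0.22 log2 and Slc25a36 from −0.14 to 0.034. The cause was not tested. Below the 25th percentile of all probes lay 6 member probes, where signal over background limits what can be seen.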

Other observations

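Further carriers stood on the array under older names and were reached only through RefSeq synonyms. They were Slc25a51, which brings NAD into mitochondria, Slc25a53 and Slc25a54. Counting them gave 53 probes with the same 6 rises and 4 falls.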
